A study of Mus musculus with 16 samples.

Results

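Primary sensory neurons release neuropeptides that carry pain and itch signals, and 6 genes encoding such peptides were followed in the dorsal root ganglia (DRGs) of 16 mice: Calca, Calcb, Tac1, Nmb, Nppb and Sst. The genes were taken by symbol, through the Ensembl identifiers of the count tables, from a set drawn up with earlier results of these data known. All 6 were among the 52636 genes listed, and all 6 passed the filter on low counts that kept 21371 genes for testing. Each library held the L3-6 DRGs of 1 male C57Bl6/J mouse, aged 3 to 4 months and with no engineered allele named. There were 4 mice in each of 4 groups: sham surgery with saline (Sham-Saline), spared nerve injury with saline (SNI-Saline), sham surgery with desipramine (Sham-DMI) and spared nerve injury with desipramine (SNI-DMI). Desipramine (DMI) is a tricyclic antidepressant that blocks noradrenaline reuptake. In the tibial form of spared nerve injury (SNI) used here, the common peroneal and sural branches of the left sciatic nerve were ligated and cut, so the DRGs of an SNI mouse hold injured and spared neurons together. DMI (15 mg/kg, intraperitoneal) or saline was injected 2 times per day for 3 weeks. Treatment began 4 weeks after the operation by the series description and the study's results, whereas its methods section speaks of months. Whether ganglia of the injured side alone were taken is not given in the sources used here.

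These peptides mark separate kinds of small-diameter sensory neuron. CGRP, from Calca and Calcb, and substance P, from Tac1, are stored in dense-core vesicles of peptidergic nociceptors and released both in the spinal dorsal horn and in the skin, where they dilate vessels and draw plasma into the tissue. Brain natriuretic peptide, from Nppb, and somatostatin, from Sst, mark a class of itch neurons (pruriceptors), in which the natriuretic peptide is the transmitter to the spinal cord. Neuromedin B, from Nmb, is a bombesin-like peptide found in peptidergic nociceptors and linked to itch and pain. Unlike peptides that are switched on by axotomy, these 6 are made in uninjured ganglia, and transcripts of all of them were counted in every library here.

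The genes lie on 4 chromosomes of GRCm38 (mm10). Calca (ENSMUSG00000030669; chr7:114631478-114636357, minus strand) and Calcb (ENSMUSG00000030666; chr7:114718643-114723365, plus strand) are neighbours, with 82285 bp between them. Nmb (ENSMUSG00000025723; chr7:80902227-80905076, minus strand) is on the same chromosome, and 163 bp of its exons are shared with Sec11a on the same strand, so reads from there cannot be told apart. Tac1 (ENSMUSG00000061762) is at chr6:7554879-7565834 on the plus strand. Nppb (ENSMUSG00000029019) is at chr4:147985788-147987205 on the plus strand. Sst (ENSMUSG00000004366) is at chr16:23889573-23890958 on the minus strand.

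Calca and Calcb are near-copies in the stretch that encodes the CGRP peptide, which bears on how reads were given to each. The longest stretch that their annotated transcripts share is 61 bases long and lies wholly in coding sequence, over exons 3 to 4 of the Calca transcript ENSMUST00000032906 (chr7:114632541-114634469) and exons 4 to 5 of the Calcb transcript ENSMUST00000182816 (chr7:114721711-114722033). It is shown 5′ to 3′ as in both transcripts, in lower case because no base differs.
Calca and Calcb: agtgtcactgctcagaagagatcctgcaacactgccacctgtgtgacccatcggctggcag
Of all windows of 50 bases, the length of 1 read, 12 occur in both genes, which is 0.715% of the Calca windows and 0.952% of the Calcb windows. The remainder of the 2 genes can be told apart by reads of this length. Calca also encodes calcitonin by alternative splicing, and gene-level counts do not separate the 2 products.

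The cAMP response element (CRE, TGACGTCA), bound by CREB, is a textbook element of the Sst promoter, and its half-site TGACG has been studied in Calca and Tac1. In the 250 bases upstream of the RefSeq start sites (GRCm38.p6), searched on both strands, the full element was present for Sst and the half-site for Calca and Tac1. These 3 are shown because they place the peptides that were compared below beside a known activity-dependent element. Each is given as 30 bases on the strand of the gene, with the element in capitals (CGTCA is TGACG read on the other strand).
Calca, chr7:114636405-114636434, minus strand: gaagcacagaggTGACGcaatctgtctggg
Tac1, chr6:7555006-7555035, plus strand: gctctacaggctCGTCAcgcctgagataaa
Sst, chr16:23890874-23890903, minus strand: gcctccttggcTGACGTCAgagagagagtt
The elements begin at -65 (Calca), -43 (Tac1) and -48 (Sst) from the RefSeq start site, and Tac1 has a further CGTCA at -197. The gene spans given above begin upstream of the RefSeq start sites for Tac1, Sst, Nppb and Nmb. The elements at -43 (Tac1) and -48 (Sst) lie inside those spans, and that of Calca lies outside. The full element, which contains the half-site, occurred in 1.546% of 32851 promoter windows and the half-site in 17.765%. The windows of Nppb and Nmb hold neither, and that of Nppb holds a TATAAA at -31, a motif found in 12.368% of windows. This TATAAA lies inside the gene span of Nppb given above. Calcb was not in the promoter table. A match is a description of the letters and was not tested for binding.

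Between 41194238 and 73920332 read pairs per library were counted on genes, and the members drew from 213 (Sst) to 60216 (Calca) counts per library. The sensory neuron gene Prph stood at 1436 to 1960 CPM (read pairs on a gene, scaled by the library's size), whereas the summed level of 7 spinal cord genes was 10.47 to 16.7 CPM. Most of that sum was Aqp4 (7.53 to 13.45 CPM), Pax2 reached 2.61, Olig1 1.04 and Mog 0.749 CPM, and Olig2, Slc6a5 and Slc32a1 did not exceed 0.596 CPM. The labels name the tissue spinal cord and the cell type dorsal root ganglia. Sham-DMI replicates 2 and 4 stood apart from the other sham libraries. The axotomy-induced gene Sprr1a was at 12.2 and 9.19 CPM in them, against 0.619 to 2.06 CPM in the other 6 sham libraries and 30.1 to 73.9 CPM in the 8 SNI libraries. Atf3, Ecel1 and Npy were also higher in both than in Sham-DMI replicates 1 and 3, whereas Gap43, Gal and Sox11 were not. For the 6 peptide genes, the comparisons of Sham-DMI with 1 other group are therefore also given without replicates 2 and 4. For Tac1 and Sst in Sham-DMI versus Sham-Saline, only the absence of a call is given. Results of all other genes that rest on Sham-DMI are given with all 16 libraries only. The library numbers in the labels run from 17 to 24 for DMI and from 33 to 40 for saline, with SNI-Saline before Sham-Saline, so any effect of library order cannot be told apart from that of DMI. Each group enters several of the comparisons below, so comparisons that share a group are not independent of each other.

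The peptide transcripts differed widely in level, and their order was the same in all 4 groups. Scaled by exon length (CPM per kb, with the exons of all annotated transcripts of a gene joined), Calca was highest, with a mean of 454 CPM per kb in Sham-Saline. Nmb (111), Calcb (94.65) and Tac1 (73.8) formed a middle tier, and Nppb (11.6) and Sst (7.53) were lowest. Per length, Calca was 3.6 to 4.08 times as high as Nmb, the next in the order, and Tac1 was 5.58 to 7.31 times as high as Nppb. The order within the middle tier was less clear, since the ranges over mice of Nmb and Calcb overlapped in Sham-Saline and those of Calcb and Tac1 overlapped in Sham-DMI. No other neighbours in the order overlapped in any group. Tac1 has a joined exon length of 3399 bp, whereas its annotated protein-coding transcripts are 434 to 1230 bases long. The place of Tac1 in the order and its ratio to Nppb therefore depend on the length used. In CPM not scaled by length, the Sham-Saline means were 251 for Tac1, 120 for Calcb and 88.4 for Nmb. In bulk tissue, a difference in the number of neurons of a kind and a difference in RNA per neuron cannot be told apart.

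**Figure D1:**
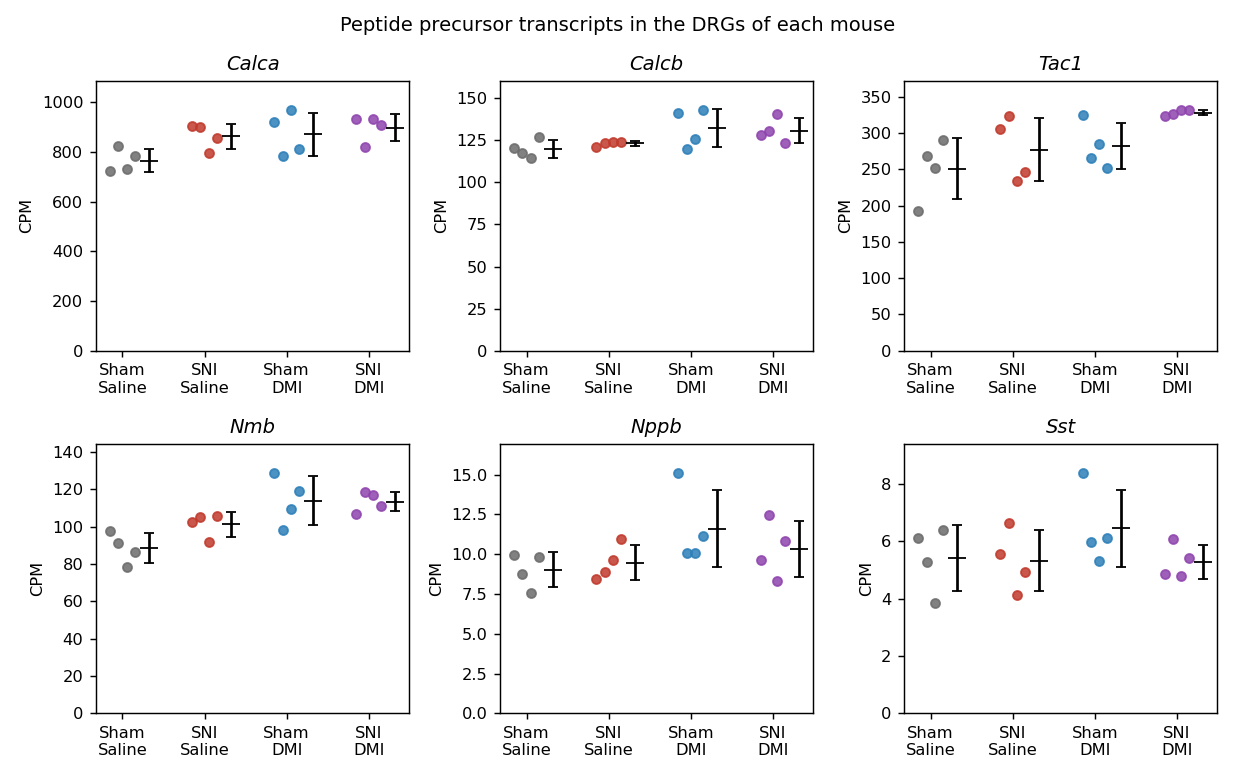
CPM of each peptide gene (vertical axes, linear and starting at 0) in the 4 groups, with 1 point per mouse and the mean ± SD beside the points. The DMI groups lie above Sham-Saline in Nmb without overlap, the 4 SNI-DMI mice are tightly grouped in Tac1 (324 to 332 CPM), and 1 Sham-DMI mouse is the highest in both Nppb (15.1 CPM) and Sst (8.40 CPM). Of all tested genes, 8.62% were higher without overlap in Sham-DMI versus Sham-Saline. That share was not counted for SNI-DMI against Sham-Saline.

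The first question was whether the peptides of uninjured ganglia change when SNI persists for weeks. None of the 6 passed the threshold (adjusted p under 0.1, edgeR quasi-likelihood test with Benjamini-Hochberg adjustment over all genes tested) in SNI-Saline versus Sham-Saline. In this contrast 12.0% of all tested genes were called, 5.85% as higher. The unadjusted p was under 0.05 for 2 members, Calca and Nmb, beside 23% (4914) of all tested genes, and DESeq2 called both (2 of 6). Of the axotomy genes, by contrast, 6 of 7 tested were higher, with Atf3 up by 2.32 and Sprr1a by 5.23 on the log2 scale.

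Calca, the main source of CGRP in DRG, stood at 721, 822, 733 and 782 CPM in the Sham-Saline mice and at 903, 900, 795 and 854 CPM in the SNI-Saline mice. In SNI-Saline 3 of 4 mice were above every Sham-Saline mouse, and the groups overlapped at 1 mouse. The log2 fold change was 0.17 (SE 0.0698, 95% interval 0.028 to 0.32, adjusted p = 0.141), and an exact permutation test of the 8 mice gave p = 0.0571, where the smallest possible p is 0.0286.

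Nmb showed the same arrangement. It was at 97.6, 91.0, 78.45 and 86.4 CPM in Sham-Saline and at 102, 105, 91.6 and 106 CPM in SNI-Saline, and again 3 of 4 SNI-Saline mice were above all Sham-Saline mice. The log2 fold change was 0.20 (SE 0.0778, 95% interval 0.033 to 0.36, adjusted p = 0.136; exact permutation p = 0.0571). DESeq2 gave adjusted p-values of 0.082 for Calca and 0.0837 for Nmb. Each call also turned when single libraries were left out. Calca was called once Sham-Saline replicate 2 (0.0981), Sham-DMI replicate 2 (0.0962) or replicate 3 of SNI-Saline (0.0837) was left out. Nmb was called once Sham-Saline replicate 1 (0.0985), Sham-DMI replicate 1 (0.0815) or 2 (0.0664), or replicate 3 of SNI-Saline (0.0721) was left out. Without both Sham-DMI replicates 2 and 4, which are in neither group of this contrast but bear on the shared estimate of the spread and on the filter (22098 genes tested), Calca (0.0725) and Nmb (0.0924) were both called. With GC content and length trends removed (described below), neither was called and both values were smaller. The log2 fold change was then 0.075 for Calca (edgeR adjusted p = 0.5885) and 0.020 for Nmb (edgeR adjusted p = 0.904).

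Calcb, the second CGRP gene, was at 120, 117, 114 and 127 CPM in Sham-Saline and at 121, 123, 124 and 124 CPM in SNI-Saline. All 4 SNI-Saline values fell inside the Sham-Saline range, and the log2 fold change was 0.041 (95% interval -0.08 to 0.16, adjusted p = 0.725). Tac1, the precursor of substance P and neurokinin A, was at 192, 268, 252 and 291 CPM in Sham-Saline and at 305, 323, 234 and 246 CPM in SNI-Saline. The SNI-Saline mice divided into 2 above and 2 within the Sham-Saline range, with a log2 fold change of 0.14 (95% interval -0.095 to 0.38, adjusted p = 0.488).

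The pruriceptor pair was close to its sham level. Nppb was at 9.96, 8.76, 7.57 and 9.81 CPM in Sham-Saline and at 8.42, 8.89, 9.62 and 10.9 CPM in SNI-Saline. Sst was at 6.14, 5.29, 3.86 and 6.42 CPM in Sham-Saline and at 5.58, 6.65, 4.14 and 4.94 CPM in SNI-Saline. Both pairs of groups overlapped broadly, and the log2 fold changes were 0.07 for Nppb (95% interval -0.23 to 0.37) and -0.027 for Sst (95% interval -0.39 to 0.34). The intervals of these scarcer transcripts are the widest of the 6.

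In sham mice, DMI was compared with saline. In Sham-DMI versus Sham-Saline 4 of 6 members passed the threshold, all higher (Nmb, Nppb, Calca and Calcb), beside 23.4% of all tested genes called in either direction, 11.6% as higher. The unadjusted p was under 0.05 for the same 4, beside 30.6% of all tested genes, and DESeq2 called 4. The count was 1 with GC content and length trends removed (Nmb) and 1 to 4 in fits without 1 library, as described below. The log2 fold change was positive for all 6, with a median of 0.22, beside 46.7% of all tested genes with a positive value and a median over all genes of -0.021.

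Nmb had the largest change relative to its error. The Sham-DMI mice were at 129, 98.3, 109 and 119 CPM, and all 4 were above the highest Sham-Saline mouse (97.6 CPM). The log2 fold change was 0.37 (SE 0.0778, 95% interval 0.20 to 0.53, edgeR adjusted p = 0.00559; exact permutation p = 0.0286, the smallest that 4 against 4 allows).

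Nppb also separated the 2 groups. It was at 15.1, 10.1, 10.1 and 11.2 CPM in Sham-DMI, every value above the Sham-Saline maximum of 9.96 CPM, 2 of them only just. Its log2 fold change of 0.36 (SE 0.142, 95% interval 0.066 to 0.66, edgeR adjusted p = 0.0891) leaned on replicate 1, without which it was 0.23 (adjusted p = 0.288). Groups that did not overlap, with DMI higher, made up 8.62% of all tested genes in this contrast.

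Calca was at 918, 785, 968 and 810 CPM in Sham-DMI, with 2 mice above every Sham-Saline mouse and 2 within the Sham-Saline range. Its log2 fold change was 0.19 (SE 0.0698, 95% interval 0.04 to 0.33, edgeR adjusted p = 0.0771). The 2 mice within the range were replicates 2 and 4, the libraries with raised Sprr1a. Without them the value was 0.30 (edgeR adjusted p = 0.00924), with 2 Sham-DMI mice left. These replicates held the 2 lowest Calca values of the group, so leaving them out had to raise the fold change.

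Calcb was at 141, 120, 126 and 143 CPM in Sham-DMI, 2 of them above the Sham-Saline range, with a log2 fold change of 0.15 (SE 0.0575, 95% interval 0.025 to 0.27, edgeR adjusted p = 0.093). Calca and Calcb did not peak in the same mice. Calca was highest in replicate 3, where Calcb was at 126 CPM, and Calcb was highest in replicate 4, where Calca was at 810 CPM.

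Tac1 (325, 266, 285 and 252 CPM) and Sst (8.40, 5.98, 5.32 and 6.13 CPM) did not pass the threshold in Sham-DMI versus Sham-Saline. Only replicate 1 was above the Sham-Saline range in either gene. The log2 fold changes were 0.17 for Tac1 (95% interval -0.07 to 0.41, edgeR adjusted p = 0.339) and 0.25 for Sst (95% interval -0.11 to 0.62, edgeR adjusted p = 0.343). Without Sham-DMI replicates 2 and 4, the 4 members called were Nmb (0.43, adjusted p = 0.00414), Calca, Nppb (0.49, adjusted p = 0.0611) and Calcb (0.16, adjusted p = 0.0902), as with all libraries.

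**Figure D2:**
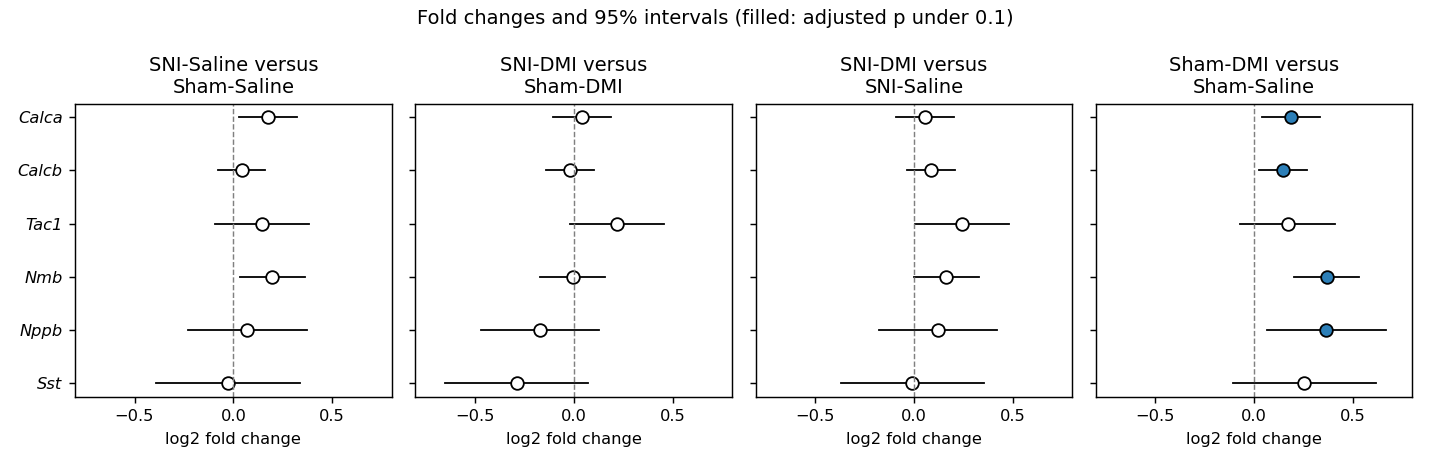
Log2 fold change (horizontal axes) of each peptide gene in the 4 comparisons of 2 groups, with the 95% interval from edgeR as a line and a filled point where the adjusted p was under 0.1. Filled points occur only in Sham-DMI versus Sham-Saline, for Calca (0.19), Calcb (0.15), Nmb (0.37) and Nppb (0.36), and the intervals are widest for Sst and Nppb.

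The study's central comparison, SNI-DMI versus SNI-Saline, asks what DMI does in animals with a standing nerve injury. No member passed the threshold (edgeR), beside 2.93% of all tested genes called, 1.32% as higher. The unadjusted p was under 0.05 for 2 members, Tac1 and Nmb, beside 18.5% of all tested genes, and DESeq2 called 0. In both of these genes, however, the 4 SNI-DMI mice were above all 4 SNI-Saline mice, an arrangement that 7.33% of all tested genes had.

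Tac1 was at 324, 326, 331 and 332 CPM in SNI-DMI, a spread of 1.23% of the mean (SD as a share of the mean), against 15.75% in SNI-Saline. A spread as narrow was not particular to this gene and group, since that of Calcb in SNI-Saline was 1.05%. For Tac1, the lowest SNI-DMI mouse was just above the highest SNI-Saline mouse, which was at 323 CPM. The log2 fold change was 0.24 (SE 0.114, 95% interval 0.0043 to 0.48, edgeR adjusted p = 0.262; exact permutation p = 0.0286). The SNI-DMI group had the highest mean of the 4 groups, 328 ± 4.05 CPM (SD, n = 4), against 282 ± 31.8 in Sham-DMI, 277 ± 43.7 in SNI-Saline and 251 ± 42.2 in Sham-Saline.

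Nmb was at 107, 119, 117 and 111 CPM in SNI-DMI, again with the lowest mouse just above the highest SNI-Saline mouse (106 CPM). The log2 fold change was 0.16 (SE 0.0776, 95% interval 0.00072 to 0.33, edgeR adjusted p = 0.268; exact permutation p = 0.0286). The means of SNI-DMI and Sham-DMI were alike, at 113 ± 5.30 and 114 ± 13.1 CPM (SD, n = 4), and those of SNI-Saline and Sham-Saline were 101 ± 6.63 and 88.4 ± 8.04 CPM.

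The other 4 members overlapped between SNI-DMI and SNI-Saline. Calca was at 930, 817, 932 and 908 CPM in SNI-DMI, with 3 of 4 mice above the SNI-Saline maximum, and Calcb was at 128, 130, 141 and 123 CPM, also with 3 of 4 above. Their log2 fold changes were 0.056 (95% interval -0.091 to 0.20) and 0.086 (95% interval -0.035 to 0.21). Nppb (9.64, 12.45, 8.35 and 10.8 CPM) and Sst (4.88, 6.09, 4.78 and 5.41 CPM) were spread around the SNI-Saline values, with log2 fold changes of 0.12 (95% interval -0.18 to 0.42) and -0.0081 (95% interval -0.37 to 0.36).

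Within DMI-treated animals, SNI-DMI versus Sham-DMI, no member passed (edgeR), beside 0.402% of all tested genes called. No unadjusted p was under 0.05, against 12.1% of all tested genes, and DESeq2 called 0. Tac1 was the nearest, with 3 of 4 SNI-DMI mice above the Sham-DMI range and a log2 fold change of 0.22 (95% interval -0.021 to 0.46, adjusted p = 0.461). The pruriceptor pair pointed the other way, with -0.29 for Sst (95% interval -0.65 to 0.073) and -0.17 for Nppb (95% interval -0.47 to 0.13), and 2 of 4 SNI-DMI mice were below the Sham-DMI range in each. Calca (0.043), Calcb (-0.018) and Nmb (-0.0055) were near 0. Without Sham-DMI replicates 2 and 4, no member passed (edgeR). Tac1 then fell to 0.10 (adjusted p = 0.867) and Calca changed sign to -0.073 (adjusted p = 0.808). Sst (-0.38, adjusted p = 0.627) and Nppb (-0.29, adjusted p = 0.638) moved farther from 0. Calcb was at -0.029 (adjusted p = 0.929) and Nmb at -0.071 (adjusted p = 0.854).

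The DMI effect was not shown to differ between injured and sham animals. The difference between both DMI effects passed for 0 of 6 members and for 0.0% of all tested genes (edgeR), no member had an unadjusted p under 0.05, beside 7.92% of all tested genes, and DESeq2 called 0 members. The estimate was positive for 1 of 6 members, Tac1 (0.074), beside 51.3% of all tested genes, and the others ran from -0.26 (Sst) to -0.059 (Calcb). The interval for Nmb, -0.43 to 0.029, is the one that came nearest to excluding 0 (unadjusted p = 0.0823, adjusted p = 0.648).

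Averaged over both surgeries, DMI libraries were higher than saline libraries in 5 of 6 members: Nmb, Calcb, Tac1, Calca and Nppb. Of all tested genes, 30.6% were called in this contrast, 14.8% as higher. The unadjusted p was under 0.05 for the same 5, beside 35.4% of all tested genes, and DESeq2 called 5. The count was 2 with GC content and length trends removed (Nmb and Tac1) and 2 to 5 in fits without 1 library. The average takes in the groups already compared, so it adds precision and not a further sample. Nmb had a log2 fold change of 0.26 (SE 0.055, edgeR adjusted p = 0.00284), and all 8 DMI mice were above the saline median of 94.6 CPM, 7 of them above every saline mouse. Calcb (0.12, adjusted p = 0.0475), Calca (0.12, adjusted p = 0.0858), Tac1 (0.21, adjusted p = 0.0734) and Nppb (0.24, adjusted p = 0.0894) each had 7 of 8 DMI mice above the saline median. Sst had 4 of 8, with a log2 fold change of 0.12 (95% interval -0.13 to 0.38, adjusted p = 0.511). How many of all tested genes had such arrangements of DMI and saline mice was not counted, so these counts only describe the members.

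Averaged over both treatments, injury called 0 of 6 members (edgeR; DESeq2 also called 0), beside 16.1% of all tested genes, and 2 had an unadjusted p under 0.05, beside 25.6% of all tested genes. These were Tac1 (0.18, 95% interval 0.012 to 0.35, adjusted p = 0.163) and Calca (0.11, 95% interval 0.0051 to 0.21, adjusted p = 0.172). Calca was called without Sham-DMI replicate 3 (0.15, adjusted p = 0.0829). Tac1 was called once Sham-Saline replicate 4 (0.22, 0.0979), Sham-DMI replicate 1 (0.21, 0.0869) or replicate 3 of SNI-Saline (0.22, 0.0827) was left out. Nmb (0.096), Calcb (0.011), Nppb (-0.051) and Sst (-0.16) had intervals that include 0.

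Nmb kept its call in sham animals, and on average over surgeries, in all 16 fits that left out 1 library, with log2 fold changes of 0.32 to 0.45 in sham animals and 0.24 to 0.31 on average. Calcb was called in 16 of 16 fits on average (adjusted p up to 0.0827) but in 9 of 16 in sham animals. In sham animals, Calca was lost without Sham-Saline replicate 1 (0.145), 3 (0.152) or 4 (0.111) and without Sham-DMI replicate 1 (0.153) or 3 (0.186). Calcb was lost without Sham-DMI replicate 1 (0.17) or 4 (0.172), without SNI-DMI replicate 2 (0.105), without Sham-Saline replicate 2 (0.168) or 3 (0.153) and without SNI-Saline replicate 3 (0.103) or 4 (0.108). Nppb was lost once Sham-DMI replicate 1 (0.288), replicate 3 of SNI-Saline (0.103) or replicate 2 (0.156) or 3 (0.214) of Sham-Saline was left out, all values being adjusted p. On average over surgeries, Calca was called in 6 of 16 such fits. It was lost without replicate 1 (0.111), 3 (0.113) or 4 (0.111) of Sham-Saline, replicate 3 (0.194) or 4 (0.139) of SNI-Saline, SNI-DMI replicate 1 (0.104), 3 (0.102) or 4 (0.107), or Sham-DMI replicate 1 (0.132) or 3 (0.125). Tac1 was called in 11, and lost without replicate 1 of Sham-Saline (0.101), replicate 3 (0.161) or 4 (0.144) of SNI-Saline, SNI-DMI replicate 2 (0.104) or Sham-DMI replicate 1 (0.144). Nppb was called in 8, and lost without replicate 2 (0.137) or 3 (0.144) of Sham-Saline, replicate 1 (0.129), 2 (0.112) or 3 (0.133) of SNI-Saline, SNI-DMI replicate 2 (0.196) or 4 (0.12), or Sham-DMI replicate 1 (0.18).

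Most of these transcripts are short, and the fits were repeated with trends on GC content and length removed. Nmb (793 bp of exon, 54.5% GC), Nppb (781 bp, 47.9% GC) and Sst (721 bp, 56.0% GC) lie at the 10.6th, 10.3rd and 9.27th percentile of exon length among tested genes, whose medians are 3405 bp and 49.4% GC. The joined exons of Tac1 (3399 bp, 42.8% GC) lie at the 49.9th percentile. Its protein-coding transcripts are only 434 to 1230 bases long, and its GC content was taken from its longest transcript, a processed transcript of 1975 bases. The trends removed for Tac1 may therefore not be those of its mRNA. With smooth trends removed from each library, only Nmb passed in Sham-DMI versus Sham-Saline (0.16, adjusted p = 0.0985), and Calca (0.10, 0.357), Calcb (0.025, 0.791) and Nppb (0.21, 0.359) did not. On average over surgeries, Nmb (0.11, adjusted p = 0.0912) and Tac1 (0.30, adjusted p = 0.0334) passed, and the value for Sst became -0.038. The cause of the shift was not tested.

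**Figure D3:**
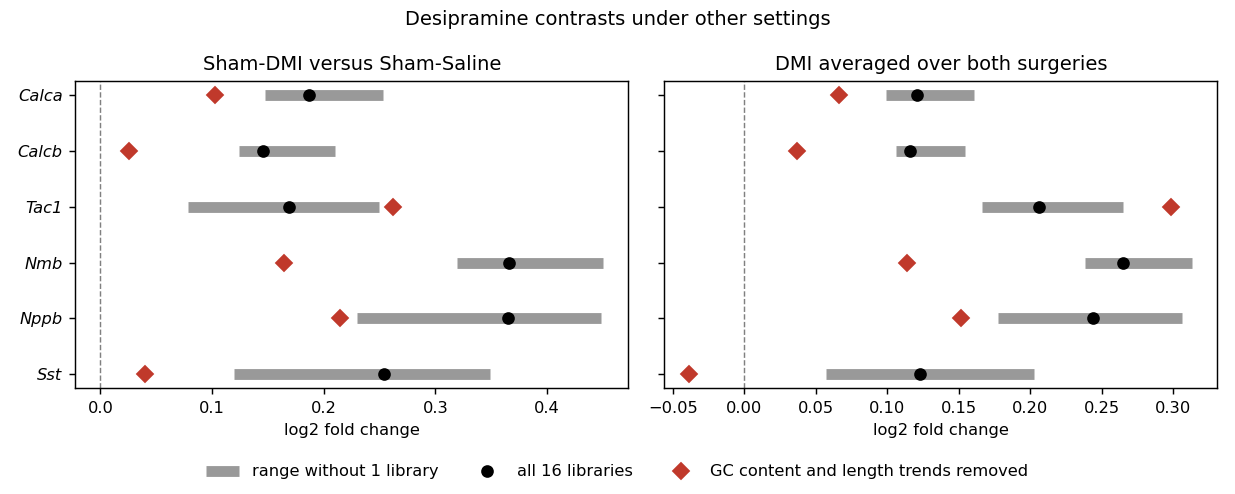
Log2 fold change (horizontal axes) for DMI in sham animals (left) and averaged over both surgeries (right), with all 16 libraries (black), as the range over fits without 1 library (grey) and with GC content and length trends removed (red diamonds). Removal of the trends moved Nmb toward 0 (from 0.37 to 0.16 in sham animals) and Tac1 away from it (from 0.21 to 0.30 on average).

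Some receptor genes of these peptides passed the threshold. Of all tested genes, 23.4% were called in Sham-DMI versus Sham-Saline and 12.0% in SNI-Saline versus Sham-Saline. The share was 0.402% in SNI-DMI versus Sham-DMI, 30.6% with DMI averaged and 16.1% with injury averaged. Of the CGRP receptor genes, Calcrl, the receptor's core subunit, was lower in Sham-DMI than in Sham-Saline (-0.57, SE 0.19, edgeR adjusted p = 0.047), with means of 4.14 and 6.14 CPM, and 1 of 5 tested genes was called in this contrast. Ramp1, its CGRP-specifying partner, and Ramp2 were higher with injury averaged over treatments (0.50, adjusted p = 0.09, and 0.22, adjusted p = 0.0157). Of the natriuretic peptide receptors, the clearance receptor Npr3 was lower in Sham-DMI than in Sham-Saline (-0.57, edgeR adjusted p = 0.0156) and higher in SNI-DMI than in Sham-DMI (0.66, adjusted p = 0.0901). The neuromedin B receptor Nmbr was lower in Sham-DMI (-1.06, adjusted p = 0.0718), at a mean of 0.169 CPM against 0.35 CPM, and the related Grpr was lower with DMI on average (-0.82, adjusted p = 0.0287). Sstr4 was lower in SNI-Saline than in Sham-Saline (-0.63, adjusted p = 0.0846), and Sstr2, which is also a peptidergic nociceptor gene, was higher with DMI on average (0.29, adjusted p = 0.0259). None of the 3 tachykinin receptor genes was called in any of the 7 contrasts (edgeR), and none had an unadjusted p under 0.05.

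Genes of the machinery that cuts and packs the peptides were called in both directions. Of all tested genes, 11.6% were called as higher and 11.9% as lower in Sham-DMI versus Sham-Saline. Injury in saline called 12.0%, and SNI-DMI versus SNI-Saline 2.93%. The same shares apply to the vesicle and peptide-degrading genes in the next paragraph. Among 8 peptide-processing genes, 3 were higher in Sham-DMI versus Sham-Saline (the 7B2 gene Scg5, 0.21; the proSAAS gene Pcsk1n, 0.25; and carboxypeptidase E, Cpe, 0.12) and 3 were lower (Furin, -0.24; Cpd, -0.15; and the prohormone convertase Pcsk1, -0.18). Pcsk1n was also higher in SNI-DMI versus SNI-Saline (0.34, edgeR adjusted p = 0.0876). With injury in saline, Furin (-0.31, adjusted p = 0.0496) and Pcsk1 (-0.19, adjusted p = 0.0992) were lower.

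Of 9 genes of dense-core vesicles, the granins Chgb (0.24) and Chga (0.27) were higher in Sham-DMI versus Sham-Saline, and Cadps2 (-0.23), Cadps (-0.17) and Ptprn2 (-0.23), which act in vesicle release and maturation, were lower. Cadps2 was also lower with injury in saline (-0.38, edgeR adjusted p = 0.0117), the single one called there, and Cadps was lower in SNI-DMI versus SNI-Saline (-0.23, adjusted p = 0.0781), also the single one. Of 5 tested peptide-degrading genes, Thop1 was higher (0.21) and Ace lower (-0.52) in Sham-DMI versus Sham-Saline, Thop1 was higher in SNI-DMI versus SNI-Saline (0.19, adjusted p = 0.0973), and Ece1 was lower with injury in saline (-0.16, adjusted p = 0.0757).

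Marker genes of the neurons that carry the peptides were followed beside them. None of 7 peptidergic nociceptor genes was called in any comparison of 2 groups (edgeR), beside 0.402% to 23.4% of all tested genes. Their summed level was 671 to 857 CPM in Sham-Saline, 704 to 922 in Sham-DMI, 692 to 946 in SNI-Saline and 871 to 958 in SNI-DMI. The pruriceptor receptor Il31ra, found in the neurons with Nppb and Sst, was lower in SNI-Saline than in Sham-Saline (-0.38, SE 0.135, adjusted p = 0.0991) and at -0.15 in Sham-DMI versus Sham-Saline (adjusted p = 0.488). Cysltr2, of the same neurons, was lower with injury averaged over treatments (-0.33, adjusted p = 0.0524). Nts, listed with the pruriceptor genes, rose with injury in saline by 2.78 on the log2 scale (adjusted p = 5.501e-06), from a mean of 10.35 to 71.0 CPM, and by 1.24 in Sham-DMI versus Sham-Saline (adjusted p = 0.00278), where it was the single 1 of 7 pruriceptor genes called. The means of Il31ra fell from 40.35 to 31.0 CPM with injury in saline, and those of Cysltr2, which did not pass there, were 9.52 and 7.87 CPM. The summed level of the 7 pruriceptor genes, most of it Jak1 (means of 484 to 536 CPM), overlapped between all groups (651 to 716 CPM in Sham-Saline, 597 to 714 in Sham-DMI, 683 to 727 in SNI-Saline and 585 to 717 in SNI-DMI).

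Genes of several other cell type lists were called in the same contrasts, and their part in the peptide results was not tested. Of all tested genes, 11.6% were called as higher and 11.9% as lower in Sham-DMI versus Sham-Saline. Injury in saline called 12.0%, and SNI-DMI versus SNI-Saline 2.93%. In Sham-DMI versus Sham-Saline, all 5 neutrophil genes were lower (summed level 3.62 to 15.4 CPM against 9.60 to 36.8), 5 of 7 axotomy genes were higher (333 to 374 CPM against 276 to 306), and 3 of 9 pan-neuronal genes (Tubb3, Uchl1 and Prph, 0.23 to 0.25) were higher and 1 (Scn9a, -0.44) was lower. Most of the summed axotomy level was Gap43, with means of 283 CPM in Sham-DMI and 238 CPM in Sham-Saline. Of the other lists in that contrast, 1 of 6 non-peptidergic nociceptor genes was lower, 0 of 4 C-LTMR genes passed, 2 of 6 A-fiber genes were higher and 2 lower, 2 of 5 satellite glia genes were higher and 1 lower, 0 of 5 Schwann cell genes passed, 1 of 6 macrophage genes was lower, and 0 of 4 tested spinal cord genes and the single tested chromaffin gene passed. With injury in saline, 3 of 6 non-peptidergic nociceptor genes were lower (Mrgprd, -0.56; Plxnc1, -0.40; Gfra2, -0.31) and 3 of 6 macrophage genes were higher. In that contrast 1 of 5 satellite glia genes (Apoe, 0.32), 1 of 4 spinal cord genes (Olig1, 1.33, from 0.278 to 0.709 CPM) and the chromaffin gene Dbh (2.04, from 0.0457 to 0.195 CPM) were higher, 1 of 4 C-LTMR and 1 of 6 A-fiber genes were lower, 1 of 9 pan-neuronal genes was higher and 1 lower, and no Schwann cell (of 5) or neutrophil gene (of 5) passed. In SNI-DMI versus SNI-Saline, 1 of 5 satellite glia genes (Fabp7, 0.34) was higher and 1 of 5 neutrophil genes (S100a8, -1.70) lower, and no gene of the other cell type lists passed (edgeR).

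Mice with more of one peptide transcript than their group tended to have more of certain others. Log2 CPM less the group mean was correlated across the 16 mice for all 15 pairs of members, with 100000 permutations and Benjamini-Hochberg adjustment over the 15 pairs, and 5 pairs passed an adjusted p of 0.1. The permutations ran across all 16 mice and not within groups, after the group means had been removed. The permutation p-values may therefore be too small, and the count of pairs too high. Calca and Tac1, the CGRP and substance P genes, had r = 0.64 (permutation p = 0.00791, adjusted 0.0423) and rho = 0.67 (permutation p = 0.00505, adjusted 0.0459), and r was 0.71 without the 2 mice farthest from the median of Calca. Nppb and Sst had r = 0.62 (permutation p = 0.0113, adjusted 0.0423) and rho = 0.61 (permutation p = 0.0135, adjusted 0.0497), and r fell to 0.40 without the 2 mice farthest in Sst, so this relation rests in part on those. The other 3 pairs included Nmb: with Sst r = 0.71 (permutation p = 0.0022, adjusted 0.033; rho = 0.67, adjusted 0.0459), with Calcb r = 0.63 (permutation p = 0.00943, adjusted 0.0423; rho = 0.60, adjusted 0.0497), and with Nppb r = 0.59 (permutation p = 0.0171, adjusted 0.0512; rho = 0.61, adjusted 0.0497). They fell to 0.53, 0.48 and 0.41 without the 2 farthest mice.

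The neighbours Calca and Calcb were not correlated (r = 0.089, permutation p = 0.742, adjusted 0.797; rho = -0.024). Per length, Calca was 4.80 ± 0.331 times Calcb in Sham-Saline, 4.96 ± 0.632 in Sham-DMI, 5.26 ± 0.348 in SNI-Saline and 5.16 ± 0.391 in SNI-DMI (SD, n = 4). The number of pairs that passed was 0 without Sham-Saline replicate 3, 0 without Sham-DMI replicate 1 and 3 without Sham-DMI replicate 2. With GC content and length trends removed, 0 of 15 passed. Calca with Tac1 then had r = 0.59 (permutation p = 0.0149, adjusted 0.172) and Nppb with Sst r = 0.54 (permutation p = 0.033, adjusted 0.172), whereas Calcb with Nmb fell to 0.31.

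**Figure D4:**
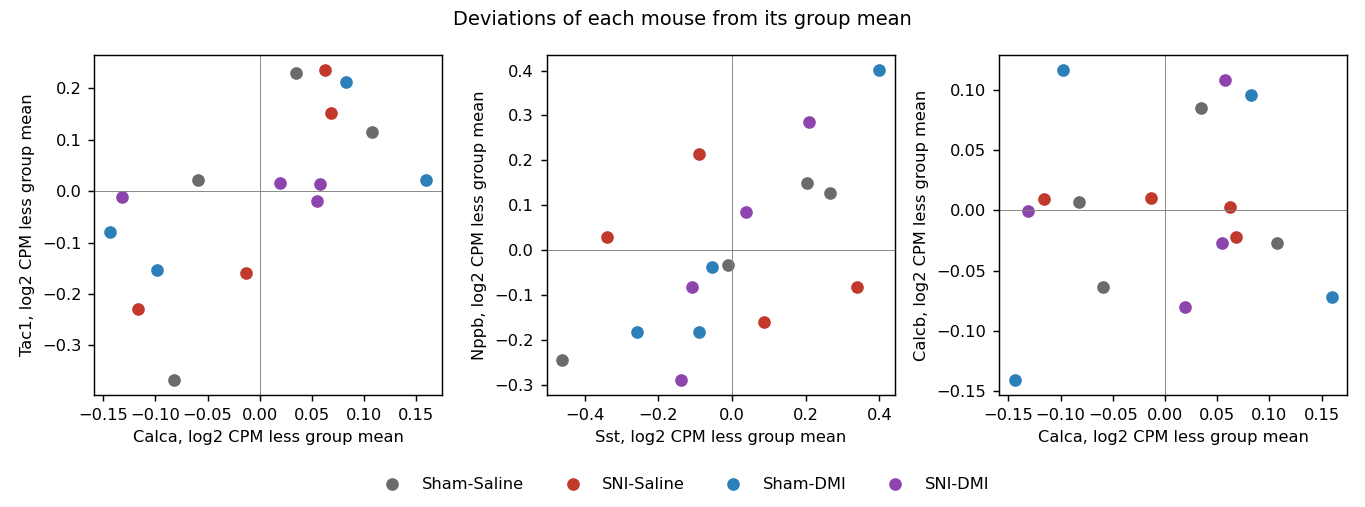
Deviation of each mouse from its group mean (log2 CPM) for Tac1 against Calca, Nppb against Sst and Calcb against Calca, with points coloured by group. Points of the first panel run from lower left to upper right (r = 0.64), those of the middle panel do so with 1 Sham-DMI mouse at the top right (r = 0.62), and those of the last panel show no slope (r = 0.089).

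The genes whose profile over the 16 libraries was most like that of a member were not members of the set in any case. Likeness was measured as the root mean square (RMS) difference of log2 CPM, each gene centred on its own mean, over 15750 genes with a mean of at least 1 CPM. Nearest to Nmb were Mrpl11 (0.045) and Aurkaip1 (0.0466), a mitochondrial ribosomal protein and a protein of the same ribosome. Nearest to Calca were Tmsb4x (0.0518), an actin-binding thymosin, and Chchd2 (0.0594), a mitochondrial protein, and nearest to Calcb were Gtpbp6 (0.0511) and Fdx1 (0.0514).

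Tac1 was nearest to Rprm (0.085) and Mrps26 (0.0983). The scarce transcripts had looser neighbours, with Setd6 (0.163) and Sugct (0.166) for Sst and Lysmd1 (0.137) and Serinc2 (0.142) for Nppb. For comparison, the RMS difference between Calca and Calcb was 0.121, that between Calca and Tac1 0.151 and that between Nppb and Sst 0.204, and the median over all genes ran from 0.172 (for Calcb) to 0.295 (for Sst).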

How the data were processed

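RNA of L3-6 DRGs from 16 mice (1 per library, 4 per group) was sequenced by the authors with a stranded mRNA kit in pairs of 50-base reads, and aligned to mm10 with NGS-Data-Charmer; the submitters' processing notes name HISAT2, HTSeq and DESeq2. The deposited values are whole-number read counts per Ensembl gene, without normalization. The strand setting and the annotation release are not given in the sources used here. The 5 closing lines of each file (18.827% to 20.445% of read pairs, not assigned to a gene) were left out. Of 52636 identifiers, 52489 are in GENCODE M21 (GRCm38).

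The counts went into edgeR 4.0.16 (R 4.3.3): filterByExpr (21371 genes), TMM, 1 coefficient per group over all 16 libraries, glmQLFit and glmQLFTest, and Benjamini-Hochberg adjustment over all genes, with a threshold of 0.1. CPM were scaled by TMM library size. DESeq2 1.42.0, DESeq2 size factors, no filter, the replicate number as a block, removal of GC content and length trends (mgcv 1.9.3, basis size 8) and leaving out each library were the alternatives. Leaving out both Sham-DMI replicates 2 and 4, and the correlations with trends removed, were added after seeing the data. For single genes, log2 CPM (prior count 2) of 4 against 4 mice were set against all regroupings in an exact permutation test, 2-sided. Figures and correlations used Python 3.11.15, numpy 2.4.6, pandas 2.3.3, scipy 1.17.1 and matplotlib 3.10.9. Promoter and transcript sequences are from RefSeq (GRCm38.p6) and GENCODE M21.

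The 6 members and the 21 comparison lists were chosen with earlier results of these data known. Named genes are all members, the genes of a list with an adjusted p under 0.1 (at most 4 per list and comparison, by smallest p) and the 2 nearest profiles of each member; genes at other values were named for contrast after their values were seen. List genes that did not pass the filter include Calcr, Sstr5, Brs3, Ide, Vip, Olig2, Slc6a5, Slc32a1, Pnmt and Hand2. Ide, a widely expressed gene, had 1 read in all 16 libraries together, so its count cannot be read as a level. The chi-square per gene between replicates, a mean over genes, was 10.38 to 44.28, where counting error gives about 1. On average over genes, the spread between mice was therefore larger than counting error. Scarce genes were not examined apart. The fit was tested on simulated data.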

Additional observations from a re-analysis of the deposited data

How the results depend on the processing

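Nmb was called in every setting run in Sham-DMI versus Sham-Saline and with DMI averaged, and calls of the other peptide genes changed with some settings. Of the other settings that kept every library, none changed the sign of a called value. In SNI-Saline versus Sham-Saline, 2 members passed with DESeq2 and 2 without both Sham-DMI replicates 2 and 4, against 0. In Sham-DMI versus Sham-Saline, 2 passed with the replicate number as a block (Calca 0.115 and Calcb 0.122 in adjusted p were lost) and 1 with GC content and length trends removed, against 4, and Calcb was lost with no filter on low counts (0.127). With DMI averaged over surgeries, 2 passed with the trends removed, against 5, and Calca was lost under the block (0.125). The replicate numbers did not pair the mice (correlations of same-numbered mice -0.24 to 0.334, median 0.000373, 8 of 24 over 0.1). Over fits without 1 library, members called ran from 0 to 2 (injury in saline), 1 to 4 (DMI in sham), 0 to 1 (injury averaged) and 2 to 5 (DMI averaged), and pairs of correlated members from 0 to 6; with trends removed 0 pairs passed. Signs turned only in values that did not pass. With trends removed these were Calcb (-0.077) and Nppb (-0.064) in SNI-Saline versus Sham-Saline, Calcb (-0.066) and Nmb (-0.030) with injury averaged, Calcb (0.023) in the difference between both DMI effects, and Sst (-0.038) with DMI averaged. Under the block, Sst became 0.0060 in SNI-DMI versus SNI-Saline. Without Sham-DMI replicates 2 and 4, Calca became -0.073 in SNI-DMI versus Sham-DMI and Tac1 -0.040 in the difference. Without 1 library, the ranges that crossed 0 were -0.15 to 0.081 (Sst) and -0.0060 to 0.14 (Nppb) in SNI-Saline versus Sham-Saline, -0.0054 to 0.11 (Calca), -0.057 to 0.0063 (Calcb) and -0.064 to 0.045 (Nmb) in SNI-DMI versus Sham-DMI, -0.12 to 0.13 (Sst) in SNI-DMI versus SNI-Saline, -0.0100 to 0.18 (Tac1) in the difference, and -0.0018 to 0.029 (Calcb) and -0.10 to 0.020 (Nppb) with injury averaged. The cause was not tested. Over all genes, the median stayed within 0.1 (log2) of 0 in every setting. With 4 mice per group, the intervals of Sst and Nppb are the widest.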
